A study of Mus musculus with 6 samples.

Results

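Pax7, the 4 myogenic regulatory factors Myf5, Myod1, Myog and Myf6, and the MEF2 factors Mef2a, Mef2c and Mef2d were followed in Sol, the slow fiber-dominant soleus muscle, of mice that had run on wheels. The 8 genes were taken by symbol from the 24411 genes of the count table, and 8 of the 8 passed the filter on low counts that left 12828 genes for testing. Polyadenylated RNA was sequenced from 3 WT and 3 LSD1-mKO mice after voluntary wheel running (VWR), with 1 library per mouse, to ask how loss of the histone demethylase LSD1 in muscle alters expression under training. The series holds no sedentary mice, so the effect of running itself could not be compared.

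Both groups were C57BL/6 mice with floxed Lsd1 alleles, the gene listed as Kdm1a. LSD1-mKO mice also carried a CreERT2 transgene under the ACTA1 promoter, which is active in differentiating and differentiated muscle cells, whereas WT mice had no CreERT2. All mice were male and 8 weeks old when they entered wheel cages, where they stayed for 38 days in all. Tamoxifen, which activates CreERT2, was injected daily on 5 days at 75 mg/kg, once the mice had had 3 days to get used to the wheel. Running was then recorded over 30 days. Before tissue was taken, the mice were kept away from the wheel and fasted, so the levels are not those of mice in the act of running. Cells of the muscle in which the ACTA1 promoter is silent, including quiescent satellite cells, vessel cells and fibroblasts, are not targeted by this design.

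Skeletal muscle is built and repaired by transcription factors that act in sequence. PAX7 marks satellite cells, the resident stem cells that lie beside the fibers. MYF5 and MYOD commit these cells to the muscle lineage, myogenin (Myog) drives their differentiation and fusion, and MRF4 (Myf6) is the myogenic factor that prevails in mature fibers. The myogenic factors are basic helix-loop-helix proteins that pair with E proteins and bind the E-box, CANNTG, and MEF2 proteins bind an AT-rich motif in many of the same muscle genes and, in fibers, link calcium signals and activity to gene expression.

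The letters upstream of Myog and Mef2c are shown because these were the members with an E-box within 250 bases upstream of a RefSeq start. The capitals mark CANNTG on the forward strand, which is its own reverse complement in pattern. Letters are 5′ to 3′ on the plus strand of GRCm38, at chr1:134289754-134289988 for Myog and chr13:83503784-83504033 for Mef2c.
Myog: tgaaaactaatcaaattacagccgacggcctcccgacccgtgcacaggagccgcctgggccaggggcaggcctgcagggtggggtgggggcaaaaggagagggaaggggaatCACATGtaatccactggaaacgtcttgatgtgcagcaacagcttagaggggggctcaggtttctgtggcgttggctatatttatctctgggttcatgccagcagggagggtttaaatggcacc
Mef2c: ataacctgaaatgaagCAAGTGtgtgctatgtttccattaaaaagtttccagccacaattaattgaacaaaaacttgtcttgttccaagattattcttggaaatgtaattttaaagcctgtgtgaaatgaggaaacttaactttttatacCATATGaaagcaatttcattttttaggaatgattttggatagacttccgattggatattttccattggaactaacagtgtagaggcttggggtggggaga
Myog held 2 E-boxes, at 132 and 6 bases before its RefSeq start. The printed stretch stops at the GENCODE start of Myog, which lies before the RefSeq start. The nearer E-box is past that end, inside the GENCODE gene, and is not printed. Mef2c held 2 in the window shown, at 228 and 94 bases before the start. Windows of later Mef2c starts are not shown. The window at chr13:83523406-83523655 held 0 and the window at chr13:83573357-83573606 held 1, at 239 bases. RefSeq windows were given for 6 of the 8 members, and an E-box lay upstream of 2 of these 6, whereas 66.2% of all 32851 windows of 250 bases held this short motif. CAGCTG, an E-box found in 13% of all windows, was not matched in the windows of the 6 members on either strand. Nor was the strict MEF2 pattern YTAWWWWTAR, found in 2.92% of all windows. In it Y is C or T, W is A or T and R is A or G. The printed Myog letters hold ctatatttat, which departs from this pattern only at its last letter, and such near matches were not counted. Matches of letters, full or near, are not evidence of binding.

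The genes lie on 6 chromosomes of GRCm38 and only Myf5 and Myf6 are neighbours. Myf6 is at chr10:107492853-107494737 and Myf5 at chr10:107482908-107486134, both on the minus strand with 6718 bases between them. Pax7 is at chr4:139737062-139833528, Myod1 at chr7:46376474-46379099 and Myog at chr1:134289989-134292548. Mef2a is at chr7:67231163-67372858, Mef2c at chr13:83504034-83667080 and Mef2d at chr3:88142372-88172086. Exons of Mef2a share 302 bases with Lysmd4, and exons of Mef2d share 531 bases with the antisense gene 1700113A16Rik, each on the opposite strand. The protocol is not stated to keep strand, so reads from these stretches cannot be assigned to a strand.

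Libraries held 8940208 to 13798061 estimated counts, and members are given as counts per 1000000 counted reads (CPM) after TMM normalization, unless another unit is named. Kdm1a was 40.5, 38.2 and 33.6 CPM in WT mice 1 to 3, against 14.6, 16.6 and 16.6 CPM in the LSD1-mKO mice, and fell by 1.23 on the log2 scale (edgeR's quasi-likelihood test, adjusted p = 0.0160). That adjusted p was above 0.05 without WT mouse 2 or without any of the 3 LSD1-mKO mice, at fold changes of -1.30 to -1.17 over the 6 omissions, and was 0.299 with a replicate block. Esr1, which shares sequence with the estrogen receptor part of CreERT2, was the other gene past an adjusted p of 0.05, and rose by 4.15 on the log2 scale (edgeR, adjusted p = 0.000195). The slow fiber markers of Sol summed to 19984 to 24651 CPM in WT and 19944 to 25253 CPM in LSD1-mKO, with no marker at 0. Fast fiber genes were abundant too. A list of 10 fast fiber genes summed to 35580.6 to 50837.1 CPM in WT and 38662.9 to 45842.2 CPM in LSD1-mKO. A list of 8 slow fiber genes summed to 36178.7 to 45374.8 CPM in WT and 39424.5 to 48180.8 CPM in LSD1-mKO. The defining satellite cell markers, Pax7 among them, summed to 73.4 to 98.7 CPM in WT and 64.1 to 91.7 CPM in LSD1-mKO. In whole muscle, fewer cells of a type and less RNA per cell cannot be told apart.

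None of the 8 factors passed the test of a change with loss of LSD1. edgeR called 0 of 8 at an adjusted p of 0.05 and 0 of 8 at an unadjusted p of 0.05, and DESeq2 and limma voom also called 0. Of all genes tested, 0.0156% passed the adjusted and 6.4% the unadjusted threshold, the latter with 3.52% higher and 2.88% lower in LSD1-mKO. Adjusted p ran from 0.777 to 0.992. Fitted levels were higher in LSD1-mKO for 7 of the 8 factors, beside 45.2% of all genes tested. The median log2 fold change of the 8 was 0.13, against -0.02 over all genes tested.

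**Figure D1:**
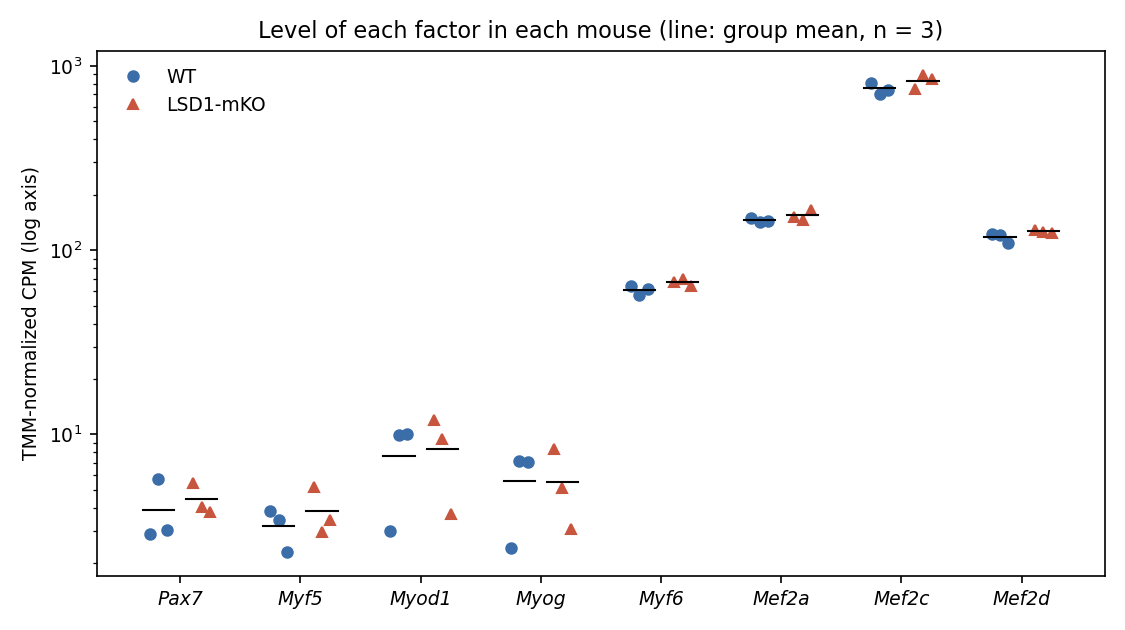
TMM-normalized CPM of each factor (log axis) in each of 3 WT mice (circles) and 3 LSD1-mKO mice (triangles), with the group mean as a line. The 4 genes on the left lie below 12 CPM and scatter widely, and the 4 on the right lie above 57 CPM with mice close together.

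Compared per length, the factors spanned a wide range in this muscle. In TPM, which divide each count by the length of the longest protein-coding transcript and scale each library to 1000000, Mef2c led at 279 ± 22.4 (SD, n = 6 mice), followed by Myf6 at 112 ± 6.93. Mef2a had 59.9 ± 3.65 TPM and Mef2d 49.995 ± 3.25 TPM. Myod1 had 9.63 ± 4.57 TPM, Myog 8.31 ± 3.76 TPM, Myf5 3.74 ± 0.986 TPM and Pax7 1.59 ± 0.514 TPM. Each of the upper 4 lay above the next in rank in 6 of 6 mice, and so did Myf5 above Pax7. Myod1 lay above Myog, and Myog above Myf5, in 5 of 6 mice, so these neighbours did not separate beyond their spread. Among the genes tested, Mef2c stood at percentile 96.2 and Pax7 at 8.98 of the TPM levels. The order of Myf6 and Mef2a depends on the length used, since with coding length in place of transcript length Mef2a came above Myf6.

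Pax7, the satellite cell factor, rested on few counts, 24 to 74 per library, as did Myf5 with 26 to 70. It was 2.89, 5.76 and 3.02 CPM in WT mice 1 to 3 and 5.47, 4.05 and 3.82 CPM in LSD1-mKO mice 1 to 3. WT mouse 2 was the highest of the 6 and the other WT mice the lowest, so the groups overlapped fully. The fitted log2 fold change was 0.18 (SE 0.31, edgeR, adjusted p = 0.930), with a 95% interval of the fold from 0.697 to 1.85. Without WT mouse 2 the log2 fold change was 0.59 (unadjusted p = 0.0599, adjusted p = 0.894, edgeR), and without LSD1-mKO mouse 1 it was 0.01.

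Myf5, an early determination factor, was 3.86, 3.42 and 2.31 CPM in WT and 5.18, 2.97 and 3.45 CPM in LSD1-mKO. LSD1-mKO mouse 1 stood above the other 5, which overlapped. Its fitted log2 fold change was 0.29 (SE 0.30, adjusted p = 0.878), with an interval of the fold from 0.761 to 1.96. It was 0.01 without LSD1-mKO mouse 1.

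Myod1, which commits myoblasts and is kept at a low level in fibers, split the mice in a way that genotype did not follow. It was 3.01, 9.90 and 10.04 CPM in WT and 11.9, 9.41 and 3.73 CPM in LSD1-mKO. WT mouse 1 and LSD1-mKO mouse 3 were low, and the other 4 mice were 9.41 CPM or above. These levels rest on 25 counts in WT mouse 1, with an exact Poisson 95% interval of 1.95 to 4.45 CPM, and on 110 counts in WT mouse 2, with 8.14 to 11.9 CPM. In LSD1-mKO mouse 3 there were 40 counts, with 2.66 to 5.07 CPM, and in LSD1-mKO mouse 1 there were 161, with 10.1 to 13.9 CPM. The intervals of the low and the high mice did not meet, although they cover counting error only, as PCR-amplified reads are not independent molecules. The fitted log2 fold change was 0.11 (SE 0.48, adjusted p = 0.971), with an interval of the fold from 0.505 to 2.32. Its sign turned with 1 mouse, from -0.23 without WT mouse 1 to 0.45 without LSD1-mKO mouse 3.

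Myog, the factor of terminal differentiation, was low in the same mice. It was 2.41, 7.20 and 7.11 CPM in WT and 8.36, 5.14 and 3.07 CPM in LSD1-mKO. WT mouse 1 and LSD1-mKO mouse 3 were again the lowest, and LSD1-mKO mouse 1 the highest. For Myog the fitted log2 fold change was -0.03 (SE 0.44, adjusted p = 0.992), with an interval of the fold from 0.486 to 1.99, and ran from -0.45 without LSD1-mKO mouse 1 to 0.25 without LSD1-mKO mouse 3. The ratio of Myod1 to Myog in TPM was 1.00, 1.10 and 1.13 in WT and 1.15, 1.47 and 0.974 in LSD1-mKO, so the 2 genes moved over a similar range.

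**Figure D2:**
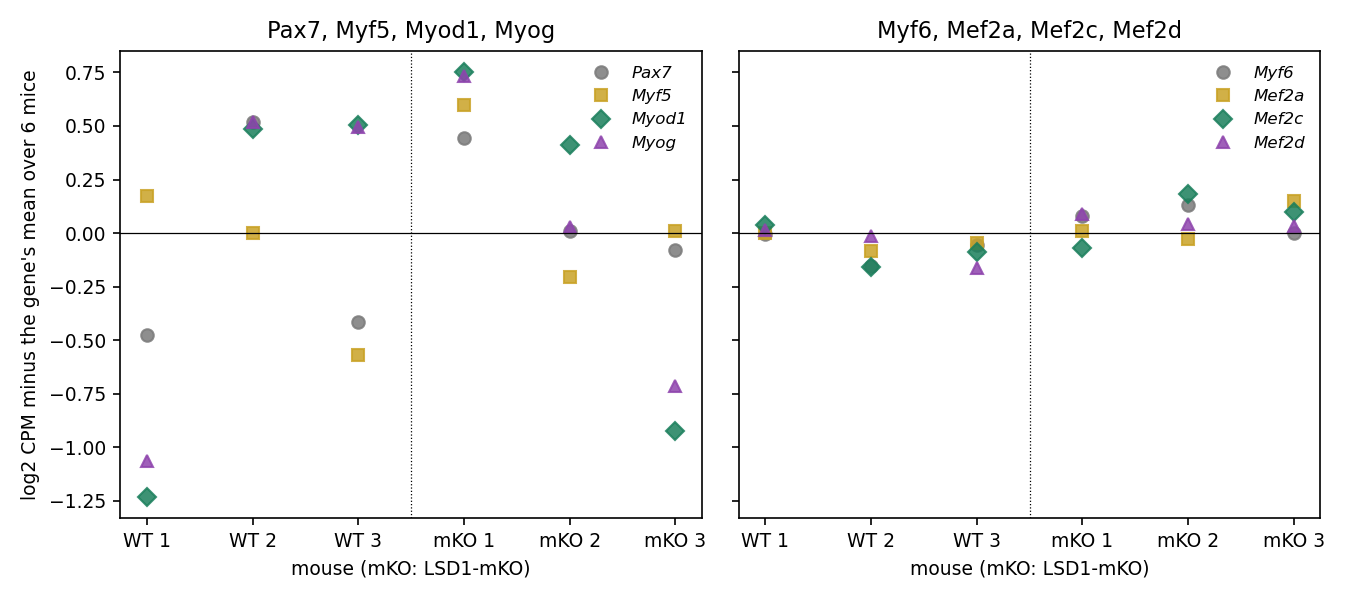
Deviation of each factor in each mouse from its own mean over 6 mice, in log2 CPM, with WT left and LSD1-mKO right of the dotted line. In the left panel Myod1 and Myog are lowest in WT mouse 1 (-1.23 and -1.06) and LSD1-mKO mouse 3 (-0.92 and -0.71), and in the right panel Myf6 and the MEF2 genes stay near 0.

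Several markers of other cells were also low in WT mouse 1. The 5 fibroblast markers summed to 943, 2593 and 3054 CPM in WT and 2033, 1096 and 1187 CPM in LSD1-mKO, with 0 of 5 past the unadjusted threshold between genotypes and none at 0. The immune markers, 4 of 6 of them tested, summed to 11.5, 51.2 and 33.4 CPM in WT and 32.0, 12.8 and 17.1 CPM in LSD1-mKO. The proliferation genes, 3 of 5 tested, summed to 4.22, 13.4 and 10.04 CPM in WT and 8.95, 2.24 and 3.26 CPM in LSD1-mKO. LSD1-mKO mice 2 and 3 were also lower than LSD1-mKO mouse 1 in all 3 of these sums, with Myod1 at 9.41 and 3.73 CPM. WT mouse 1 also had the smallest library. The part of these cells, and of depth, in the levels of Myod1 and Myog was not tested.

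Myf6, the myogenic factor of mature fibers, was by far the most abundant of the 4 and the steadiest. It was 63.7, 57.4 and 61.4 CPM in WT and 67.5, 69.99 and 63.8 CPM in LSD1-mKO. The lowest LSD1-mKO mouse lay just above the highest WT mouse, so the groups did not overlap. The fitted log2 fold change was 0.14 (SE 0.084, adjusted p = 0.777), with an interval of the fold from 0.966 to 1.26. Myf6 made up 78.7% to 90.8% of the summed TPM of the 4 myogenic factors. That share was highest in the 2 mice with low Myod1 and Myog, which follows from the sum because Myf6 itself was steady. The exact permutation test gave p = 0.1, the smallest that 10 splits of 6 mice into 3 and 3 allow.

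Among the MEF2 genes, Mef2c was the most abundant. It was 812, 707 and 742 CPM in WT and 752, 896 and 846 CPM in LSD1-mKO. WT mouse 1 lay above LSD1-mKO mouse 1, and the groups overlapped. The fitted log2 fold change was 0.14 (SE 0.11, adjusted p = 0.827), with an interval of the fold from 0.930 to 1.31, and it was 0.09 without LSD1-mKO mouse 2.

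Mef2a, a widely expressed member of the family, was 149, 141 and 145 CPM in WT and 151, 147 and 166 CPM in LSD1-mKO. LSD1-mKO mouse 3 was the highest and the rest lay close together, with WT mouse 1 above LSD1-mKO mouse 2. The log2 fold change of Mef2a was 0.09 (SE 0.083, adjusted p = 0.868), with an interval of the fold from 0.931 to 1.21, and it was 0.03 without LSD1-mKO mouse 3. Mef2d, whose muscle isoform takes part in late differentiation, was 123, 121 and 109 CPM in WT and 129, 125 and 124 CPM in LSD1-mKO. WT mouse 3 was the lowest, and the highest WT mouse lay just below the lowest LSD1-mKO mouse. The log2 fold change of Mef2d was 0.11 (SE 0.082, adjusted p = 0.836), with an interval of the fold from 0.944 to 1.23, and it was 0.05 without WT mouse 3.

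The groups were thus without overlap for Myf6 and Mef2d, which is 25% of the 8 factors, beside 12.7% of all genes tested, of which 6.63% were higher in LSD1-mKO as these were. Scaling bears on this count, which was 2 with DESeq2 size factors or upper quartile scaling, 1 in TPM, where Mef2d overlapped, and 0 with library size alone. The summed TPM of Mef2a, Mef2c and Mef2d was 366, 382 and 371 in WT and 375, 426 and 416 in LSD1-mKO. LSD1-mKO mouse 1 lay among the WT mice in this sum. Mef2c held 70.1% to 74.2% of it in every mouse, so the makeup of the MEF2 pool varied little. Mef2b, the remaining gene of the family, had 1 to 8 counts per library and was not tested.

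**Figure D3:**
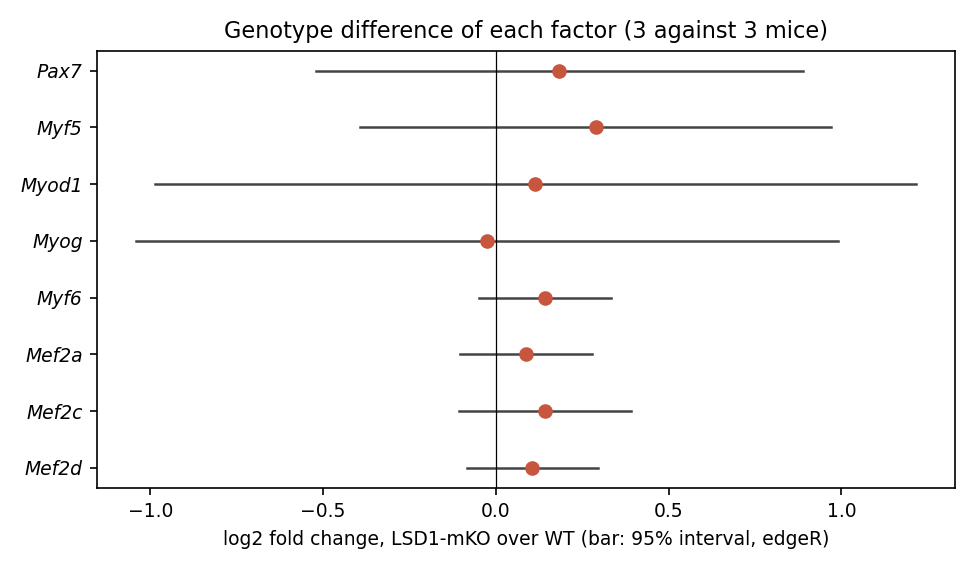
Fitted log2 fold change of each factor, LSD1-mKO over WT, with its 95% interval from edgeR, for 3 against 3 mice. Each of the 8 intervals spans 0, and those of Myod1 (-0.99 to 1.21) and Myog (-1.04 to 0.99) are the widest.

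The precision of these comparisons differed between the low and the abundant factors. The coefficient of variation between mice of a group was 51.4% for Myod1 and 48.7% for Myog, where counting error alone gives 12.7% and 14.6%. Genes within 1.5 times the level of Myod1 had a median of 15.1%, and 98.8% of them varied less than Myod1. For Myog the corresponding values were 17.6% and 97.3%. Over all genes tested, 2.23% had a coefficient above that of Myod1. Pax7 varied by 32.7%, beside a median of 20.2% for genes of like level, 83.6% of which varied less. Myf5 varied by 27.7%, beside a median of 21.5%, with 69.7% of such genes varying less. At the other end, Myf6 varied by 4.91%, Mef2a by 5.03%, Mef2d by 4.79% and Mef2c by 8.01%, each below the median of tested genes of like level. Of the genes near the level of Myf6, 16.5% varied less than it did.

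**Figure D4:**
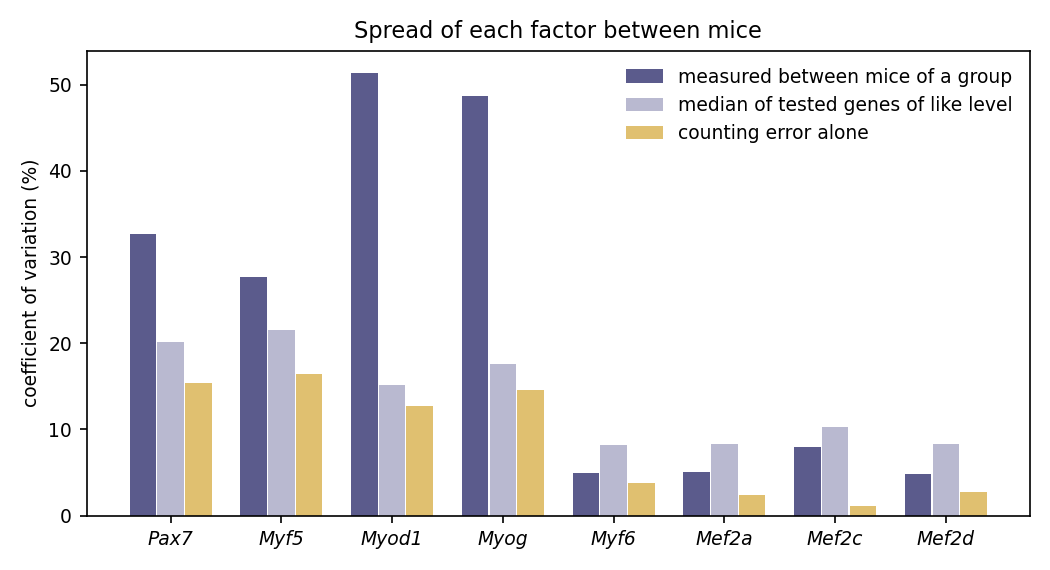
Coefficient of variation (%) of each factor between mice of a group, pooled over both genotypes (dark), the median of tested genes within 1.5 times its level (pale) and the value counting error alone gives (yellow). Myod1 and Myog reach 51.4% and 48.7%, and Myf6 and the MEF2 genes stay at or below 8.01%.

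The partners, inhibitors and targets of the factors were examined next, in lists of genes set by their known roles. Of 110 genes listed, 101 were tested, and edgeR, DESeq2 and limma voom each called 0. At an unadjusted p of 0.05 edgeR gave 4 higher and 5 lower in LSD1-mKO, which is 8.91% of those tested beside 6.4% of all genes. The smallest adjusted p was 0.534. Groups did not overlap for 9 genes, or 8.91%, beside 12.7% of all genes tested. None of the genes below therefore passed the test, and they are given as values.

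The E proteins Tcf3, Tcf4 and Tcf12, the pairing partners of the myogenic factors, had fitted levels that were lower in LSD1-mKO for 3 of 3, with a median log2 fold change of -0.07. Tcf3 was 24.5 ± 6.75 CPM in WT and 21.2 ± 3.47 CPM in LSD1-mKO (SD, n = 3). Among the inhibitors of the myogenic factors, 8 of 11 tested were lower, with a median of -0.32. Id1, whose product binds E proteins and keeps them from DNA, was 42.4, 29.1 and 25.6 CPM in WT and 23.1, 23.2 and 24.7 CPM in LSD1-mKO. All 3 LSD1-mKO mice lay below all 3 WT mice, WT mouse 1 being far above the rest (log2 fold change -0.45, unadjusted p = 0.0340, adjusted p = 0.729, edgeR). Id3 was 52.6, 43.4 and 37.2 CPM against 37.3, 38.0 and 31.4 CPM, and overlapped. Twist2, a basic helix-loop-helix repressor, was at 1.93 ± 0.214 CPM in WT and 1.23 ± 0.548 CPM in LSD1-mKO.

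Of the class IIa deacetylases and other MEF2 cofactors, 5 of 11 were higher and 6 lower, with a median of -0.04. Hdac4, a class IIa deacetylase that binds MEF2 proteins and represses their targets, was 28.0, 25.4 and 27.6 CPM in WT and 17.2, 24.5 and 20.6 CPM in LSD1-mKO. Its groups did not overlap (log2 fold change -0.38, unadjusted p = 0.0222, adjusted p = 0.701). The kinases Mapk14 and Mapk7, which act on MEF2 proteins, had log2 fold changes of 0.14 and -0.23, with adjusted p of 0.832 and 0.850 by edgeR.

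Chromatin and homeodomain cofactors were split evenly, 7 of 14 in each direction. Eya1, a transcriptional coactivator that takes part in muscle development, was 15.7, 12.8 and 12.7 CPM in WT and 23.8, 17.7 and 19.4 CPM in LSD1-mKO. Each LSD1-mKO mouse lay above each WT mouse (log2 fold change 0.57, unadjusted p = 0.00463, adjusted p = 0.534). The acetyltransferase gene Kat2b, at 136 ± 8.66 CPM in WT and 152 ± 5.60 CPM in LSD1-mKO, did not overlap either. The methyltransferase gene Setd7 was 132 ± 9.97 CPM and 146 ± 13.2 CPM.

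Of the listed satellite cell markers other than Pax7, 11 of 14 tested had lower fitted levels in LSD1-mKO, with a median of -0.20. Pax7 itself had a positive estimate. In whole muscle these markers need not come from satellite cells alone. Estimates were also lower for 5 of 5 fibroblast markers, with a median of -0.51, and for 4 of 4 immune markers tested, with a median of -0.62. The part of these cells, and of fibers and vessel cells, in the satellite cell list was not tested. Of the defining satellite cell markers, 4 were tested, Pax7 among them, with 2 higher, 2 lower and a median of -0.12. Chodl was 31.1, 34.7 and 47.4 CPM in WT and 34.8, 24.4 and 23.7 CPM in LSD1-mKO, with LSD1-mKO mouse 1 among the WT mice (log2 fold change -0.45, unadjusted p = 0.0493, adjusted p = 0.766, edgeR). Hey1, a Notch target, was 19.5 CPM in WT mouse 1 and 8.43 to 11.7 CPM in the other 5 mice. Spry1, an inhibitor of growth factor signalling linked to satellite cell quiescence, was 46.8 ± 7.13 CPM and 40.9 ± 1.46 CPM. Pax3, the paralog of Pax7, had at most 1 count in a library and was not tested.

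Of the 20 genes listed as targets of differentiation and fusion, 18 were in the count table and 17 were tested. Mymk and Mymx, the fusion genes of the list, had no entry under these symbols and so were not measured here. Among the 17 tested, 6 were higher in LSD1-mKO and 11 lower, with a median of -0.04. Rb1, the retinoblastoma gene that supports cell cycle exit of myoblasts, was 32.7, 33.9 and 32.1 CPM in WT and 39.5, 38.0 and 40.0 CPM in LSD1-mKO. Its mice were tight within each genotype and did not overlap between them (log2 fold change 0.25, unadjusted p = 0.0139, adjusted p = 0.659, edgeR). Actc1, the cardiac actin gene, was 38.0 ± 2.78 CPM in WT and 43.3 ± 0.802 CPM in LSD1-mKO, also without overlap. Chrnb1, a subunit gene of the acetylcholine receptor, was 44.3 ± 4.58 CPM and 52.3 ± 7.81 CPM.

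MEF2 targets were 7 of 13 higher and 6 lower, with a median of 0.02. Xirp1, which encodes an actin-binding protein of muscle junctions, was 298, 278 and 284 CPM in WT and 450, 295 and 387 CPM in LSD1-mKO. LSD1-mKO mouse 2 lay just below WT mouse 1, so the groups overlapped (log2 fold change 0.40, unadjusted p = 0.0259, adjusted p = 0.723, edgeR). The immediate early gene Jun was 146 ± 32.2 CPM in WT and 109 ± 19.3 CPM in LSD1-mKO. Nr4a1, an activity-responsive nuclear receptor gene, was 92.7 ± 41.5 CPM and 52.0 ± 21.2 CPM, with adjusted p of 0.766 for both by edgeR.

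None of the fiber genes passed the test. Of the 10 fast fiber genes 4 were higher and 6 lower, and of the 8 slow fiber genes 7 were higher and 1 lower, with medians of -0.02 and 0.16. Actn3, the alpha-actinin gene of fast fibers, was 91.9, 63.6 and 198 CPM in WT and 497, 165 and 341 CPM in LSD1-mKO. The log2 fold change was 1.503 (unadjusted p = 0.0128, adjusted p = 0.636, edgeR), and LSD1-mKO mouse 2 lay below WT mouse 3. Atp2a2, the slow calcium pump gene, was 6295 ± 1086 CPM in WT and 7819 ± 1099 CPM in LSD1-mKO. The 3 proliferation genes tested, Mki67, Top2a and Ccna2, had lower estimates in LSD1-mKO, at a median of -0.91 with unadjusted p of 0.177, 0.170 and 0.182 by edgeR.

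**Figure D5:**
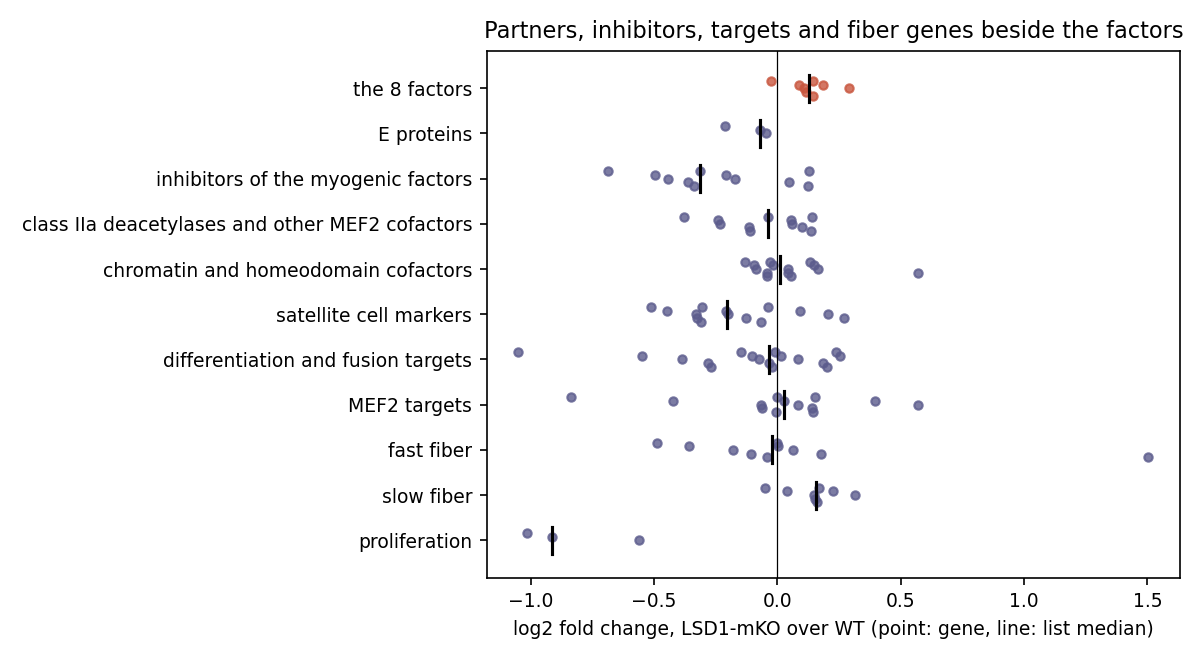
Fitted log2 fold change, LSD1-mKO over WT, of the 8 factors and of each tested gene (points) of the pathway lists, with the list median as a line. The 8 factors lie between -0.03 and 0.29, the inhibitors have a median of -0.32, and no point passed an adjusted p of 0.05.

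The genes whose level followed each factor most closely over the 6 mice were found by Pearson's r of log2(CPM + 0.5) among 10211 other genes of at least 5 CPM. These r are descriptions over 6 libraries shared by every gene, and the highest of so many values is large by construction. For Myod1 and Myog they include the 2 mice lowest for both genes. For Myod1 they were Zfp395 (r = 0.994) and B3gnt2 (r = 0.989), and for Myog they were Plat, the tissue plasminogen activator gene (r = 0.999), and the actin-severing factor gene Dstn (r = 0.995). Plat was 6.63, 13.8 and 13.5 CPM in WT and 14.9, 10.5 and 7.54 CPM in LSD1-mKO, low in the mice that were low for Myog. For Pax7 they were Nos2 and Pcdh1 (r = 0.986 and 0.984), and for Myf5 Rabl3 and Snai3 (0.988 and 0.971). For Myf6 they were Ubap1 and Ccar1 (r = 0.991 and 0.985). Mef2a was most like Ppp2r5e and Atpaf1 (0.991 and 0.990), Mef2c like Kiz and Msrb1 (0.994 and 0.993) and Mef2d like Hsbp1l1 and Rmi1 (0.995 and 0.987). No gene was named for 2 factors.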

How the data were processed

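Total RNA of Sol was extracted with Trizol, selected for poly(A) and sequenced as 75-base single-end reads. The authors aligned them to mm10 with STAR, and the deposited values are estimated counts of each gene without normalization, of which 8.33% to 9.94% in a library are not whole. The counting tool and annotation are not given in the sources used here. A deposited table of the authors' DESeq2 comparison (mean, log2 fold change, standard error, statistic and p-values) was not used.

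Counts were rounded and fitted with edgeR 4.0.16 in R 4.3.3 (TMM, filterByExpr, quasi-likelihood test), with Benjamini-Hochberg adjustment over 12828 genes and a threshold of 0.05. Alternatives were DESeq2 1.42.0, limma 3.58.1 (voom), other scalings and filters, a replicate block and leaving out each mouse. Members were each also compared by an exact two-sided permutation test over 10 splits, with p of at least 0.1. The fit was tested on simulated data. TPM used GENCODE vM21 lengths (23350 symbols matched directly, 660 through older symbols, 401 without a length). Deviations in log2 CPM used no pseudocount. Promoter letters came from RefSeq (GRCm38.p6), positions from GENCODE vM21 (GRCm38).

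Members and lists were chosen with earlier results of these data known. Named genes were the 8 members, Kdm1a and Esr1, at most 3 per list with the smallest unadjusted p, and the 2 genes most like each member at 5 CPM or more. Pax3 and Mef2b were named besides for their low counts, and Mymk and Mymx because the count table lacks these symbols. All pairs of libraries differed by more than sampling noise (chi-square per gene at least 9.88). The p-values of edgeR set each difference against the spread between 3 mice per genotype, a spread estimated with help from all genes tested.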

Additional observations from a re-analysis of the deposited data

How the results depend on the processing

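Of 112 refits of the 8 factors, 106 kept the direction and none passed an adjusted p of 0.05. The other 6 turned the sign by leaving out 1 mouse, 2 for Myod1 and 4 for Myog. With each mouse left out in turn, the log2 fold change of Mef2a ran from 0.03 to 0.13, Mef2c from 0.09 to 0.21, Mef2d from 0.05 to 0.14, Myf6 from 0.10 to 0.18, Myf5 from 0.01 to 0.46 and Pax7 from 0.01 to 0.59. The log2 fold change over these omissions ran from -0.23 to 0.45 for Myod1, which was -0.22 without LSD1-mKO mouse 1, and from -0.45 to 0.25 for Myog, which was above 0 without WT mouse 2 or 3 or LSD1-mKO mouse 2 or 3. The cause was not tested. Genes called higher over the whole table, 1 here, were 33 by DESeq2, 2 by voom, 8 with no filter and 1 to 2 with a mouse left out. Genes called lower, 1 here, were 9 by DESeq2, 3 with no filter and 0 to 1 with a mouse left out. With a replicate block 0 were called lower, and Kdm1a stood at -1.23 with an adjusted p of 0.299. The labels do not say whether the replicate numbers pair the mice. The correlations of same-numbered deviations were -0.364, -0.0968 and -0.146, which with 3 mice per genotype cannot settle it. The block changed no other call. Kdm1a ran from -1.30 to -1.17 with a mouse left out. Members without overlap, 2 here, were 1 in TPM and 0 with library size alone, scales chosen after the data were seen. By TPM, 6 of 8 ranks held with coding length, 5 in WT mouse 1 alone and 6 in LSD1-mKO mouse 3 alone. Of the 16 genes most like a factor, 7 were as high by Spearman's rho. Promoters with an E-box, 2 here, were 0 for CAGCTG alone. The lowest count of a factor in a library was 20.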
